A study of Mus musculus with 111 samples.

Results

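Bc1, the brain cytoplasmic RNA, is 1 row of the 54087 gene rows counted in this study. It was chosen by its measured values, with earlier results of these data in view, for a difference between viruses and for its ties to cohort and to the share of reads that fell in gene rows, so those features are described below and carry no test. RNA from the tuberomammillary nucleus (TMN), the histaminergic cell group of the posterior hypothalamus, was sequenced from adult C57BL/6 mice (the C57BL/6J substrain by the study's methods) of both sexes in 3 cohorts. Each mouse had received 1 of 3 adeno-associated viruses in the TMN: an empty vector expressing GFP (here GFP), a vector expressing wild-type histone H3.3 (H3.3), or a vector expressing H3.3 Q5A (Q5A), in which glutamine 5 of the histone is replaced by alanine and can no longer carry a monoamine. All 3 vectors also expressed GFP from an internal ribosome entry site, the GFP-lit tissue was dissected, and tissue was taken at zeitgeber time (ZT) 0, 4, 8, 12, 16 and 20 h. The 110 libraries comprised 32 for GFP, 39 for H3.3 and 39 for Q5A, with 4 to 8 libraries at each ZT of each virus. The labels do not say what a cohort was. The tissue may hold infected and uninfected cells, and fewer cells that make an RNA cannot be told apart from less RNA per cell.

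BC1 RNA is a small noncoding RNA of rodents that RNA polymerase III transcribes, unlike messenger RNA. It arose from a transfer RNA, and its 5′ domain is the founder of the rodent ID family of short repeats. In neurons it is carried into dendrites, where it is known to hold back the start of translation through the helicase eIF4A and the poly(A)-binding protein.

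The Bc1 row has 1 exon of 168 bases on chromosome 7 (144914470 to 144914637, plus strand, build GRCm38), annotated as a lincRNA in GENCODE M21, and no annotated exon overlaps it on either strand. Its sequence is shown because its repeated 5′ domain and its internal A-rich stretch bear on which reads can be assigned to it and on how it is captured. The capitals mark the A-rich stretch (bases 77 to 128).
Bc1 transcript, chr7:144914470-144914637, GRCm38, plus strand: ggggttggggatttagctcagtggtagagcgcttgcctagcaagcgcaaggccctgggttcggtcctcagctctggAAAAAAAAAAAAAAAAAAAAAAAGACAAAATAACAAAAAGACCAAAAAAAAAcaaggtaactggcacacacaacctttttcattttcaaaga
The first 76 bases were 61.8% G or C, the A-rich stretch was 86.5% A with a longest run of 23 A, and 40 bases followed it. The libraries were labelled as polyA RNA, and the A-rich stretch of Bc1 lies inside the molecule. The A box of RNA polymerase III genes (its consensus form, searched on both strands) was present once, from base 14 on the plus strand. The same letters stood in 2.39% of 49046 windows of the first 168 bases of other genes. The B box (GTTCNANNC) had no match, and the closest window, from base 58, differed by 1 letter. The E box CACGTG was not found in the 300 bases around the start (RefSeq, GRCm38.p6), where 7.24% of 27025 such windows held it. Of the 144 stretches of 25 bases in the transcript, 83 also occurred in transcripts of other genes, including all 52 that lie within the 5′ domain. The 25-base stretches were shared with 348 other genes on one strand or the other. Of the 119 stretches of 50 bases, 37 were shared, with Lrrc17 and Tatdn1 on the same strand and with Akap5, Elp6 and Gm26549 on the opposite one. The counting kept reads of alignment quality 10 or more, and whether reads inside the 5′ domain were among those counted was not tested.

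Depth and read composition set how these counts can be read. The libraries held 673306 to 3375352 reads in gene rows. That was 3.49% to 5.63% of placed reads, here those placed uniquely in the genome with an alignment quality of 10 or more. The reads were counted on the strand of the gene, from a stranded kit, and rows whose exons lie opposite another gene held many of them. The Parpbp row, opposite Pmch, had a median of 19256 reads per library against 70.5 in the Pmch row itself, and the rows of the abundant genes Actb and Gapdh had medians of 106 and 43.5. Which strand of the Bc1 locus the reads in its row came from was not tested. The Bc1 levels below are those of this row and may not be levels of BC1 RNA. Markers of the tissue were looked at in the same counts, where the Actb and Gapdh rows were low too. How much histaminergic tissue the libraries held cannot be read from them. Summed normalised counts of 8 histaminergic markers ran from 65.9 to 372 and Hdc, the histamine-forming enzyme, had a median of 3.00 to 5.50 reads by virus and was at 0 in at least 1 library of each virus. The summed level of 12 neuronal markers ran from 4906 to 32876. Replicates 2 and 3 of Q5A at ZT4 in cohort 2 differed in 3 rows by 6 reads, less than sampling noise, and their mean was counted as 1 library.

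Bc1 was detected in all 110 libraries, with 47 to 2992 reads. Divided by size factors, its normalised count (the unit of all levels below) was 539 ± 392 (SD, n = 110), and the highest library was 34.8 times the lowest. By mean normalised count Bc1 was number 464 of all rows. Per kilobase of exon, where the short length counts, it was number 8 of 28499 annotated rows, at 3206 normalised counts per kilobase. Both are ranks among the rows of these counts, where Actb and Gapdh were low, and not ranks of RNA abundance in the tissue.

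Across viruses, Bc1 was lowest with GFP, higher with H3.3 and highest with Q5A. The lowest, median and highest normalised counts were 71.0, 218 and 881 in the 32 GFP libraries. They were 99.9, 419 and 2471 in the 39 H3.3 libraries. They were 194, 643 and 1675 in the 39 Q5A libraries. The means ± SD were 308 ± 217, 562 ± 465 and 704 ± 335, and the ranges overlapped between all 3 viruses. Of the 39 Q5A libraries, 37 lay above the GFP median, 12 lay above the highest GFP library and 30 lay above the H3.3 median. Of the 39 H3.3 libraries, 34 lay above the GFP median. Among the 20 libraries with the most Bc1, 13 were Q5A, 5 were H3.3 and 2 were GFP, and among the 20 with the least, 14 were GFP, 4 were H3.3 and 2 were Q5A.

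In the model fitted over all genes with virus and ZT as terms, Bc1 in H3.3 exceeded Bc1 in GFP by 0.95 ± 0.21 (log2, SE). Q5A exceeded H3.3 by 0.37 ± 0.19 and GFP by 1.32 ± 0.21. With GFP and H3.3 pooled as the study's controls, the difference of Q5A from controls was 0.72 ± 0.18. The step from H3.3 to Q5A was the smallest of these relative to its error. Few genes passed a test on virus. With edgeR's quasi-likelihood test and an adjusted p threshold of 0.01, 0 of 13891 genes (0%) were called for H3.3 minus GFP, where 527 had an unadjusted p under 0.05 and DESeq2 called 0. For Q5A minus GFP 3 (0.0216%) were called, for Q5A minus H3.3 2 (0.0144%) and for Q5A minus controls 2 (0.0144%).

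**Figure D1:**
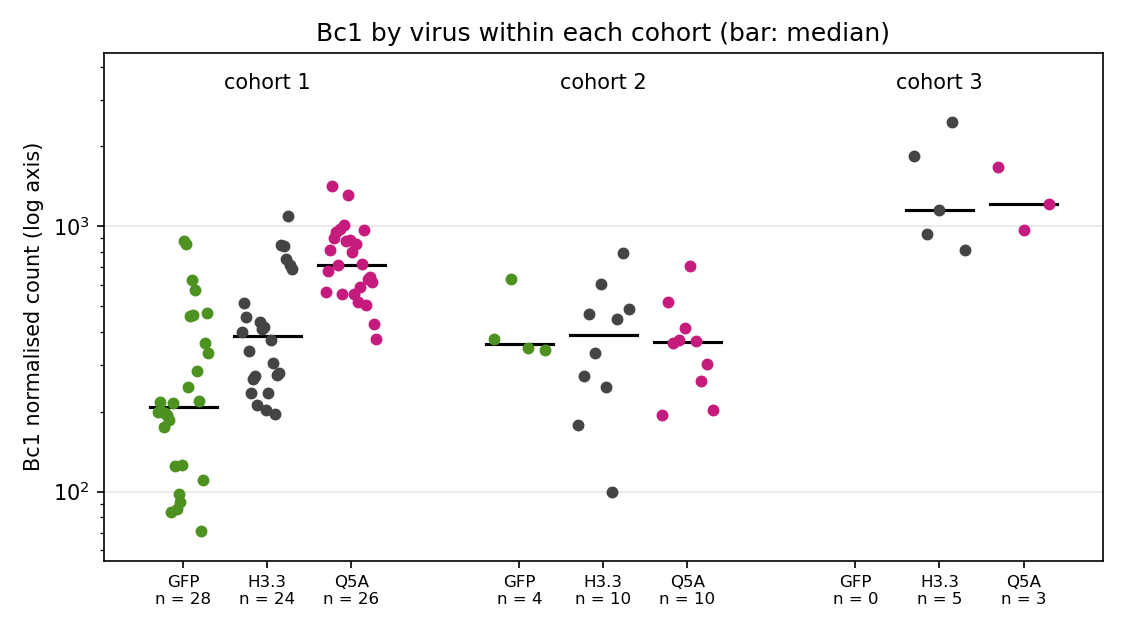
Bc1 normalised count (log axis) of each library by virus within each of the 3 cohorts, all ZTs together, with bars at the medians. The medians of cohort 1 step up from GFP (208) to H3.3 (386) to Q5A (716), those of cohort 2 lie between 362 and 390, and the cohort 3 libraries are all at 815 or above.

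The graded order of the medians was seen in cohort 1, which held 78 of the 110 libraries. The cohort 1 medians were 208 in GFP (n = 28), 386 in H3.3 (n = 24) and 716 in Q5A (n = 26), and 26 of 26 Q5A libraries lay above the GFP median. The lowest and highest values there were 71.0 and 881 in GFP, 197 and 1094 in H3.3, and 376 and 1413 in Q5A. Fitted within cohort 1, the differences were 0.70 ± 0.21 for H3.3 minus GFP, 0.87 ± 0.21 for Q5A minus H3.3 and 1.57 ± 0.20 for Q5A minus GFP (log2, SE). In cohort 2 the 4 GFP libraries had normalised counts of 343, 347, 376 and 631. The 10 H3.3 libraries of that cohort ran from 99.9 through a median of 390 to 793, and the 10 Q5A libraries from 194 through 367 to 711. The 3 viruses overlapped throughout in cohort 2, and the differences of mean log2 normalised counts were -0.28 ± 0.35 for H3.3 minus GFP, 0.03 ± 0.33 for Q5A minus H3.3 and -0.25 ± 0.28 for Q5A minus GFP, each smaller than its error. Cohort 3 had no GFP library. Its 5 H3.3 libraries were at 815, 937, 1151, 1848 and 2471 and its 3 Q5A libraries at 971, 1217 and 1675, a difference of -0.07 ± 0.38. All 8 libraries of cohort 3 were above the medians of every virus in the other cohorts. With cohort as a term of the model, the differences were 0.64 ± 0.19 for H3.3 minus GFP, 0.55 ± 0.17 for Q5A minus H3.3 and 1.19 ± 0.19 for Q5A minus GFP. Whether cohort 2 differed from cohort 1 in the virus difference was not tested.

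**Figure D2:**
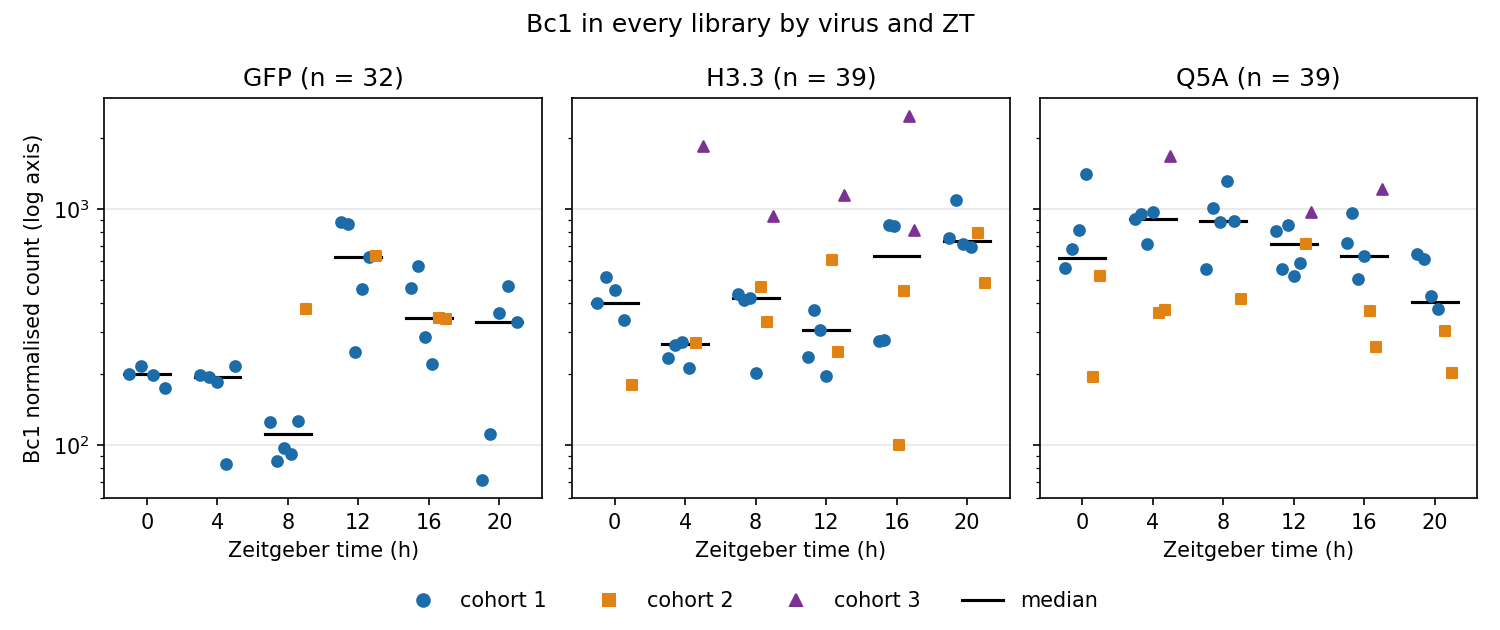
Bc1 normalised count (log axis) of each library against ZT, 1 panel per virus, with symbols for the cohort and bars at the group medians. The GFP libraries lie near or below 217 at ZT0 and ZT4 and between 248 and 881 at ZT12, whereas the Q5A panel has its lowest median, 403, at ZT20.

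The medians of Bc1 took a different course over the day with each virus, and the test of that difference is given after the 3 courses. In GFP it was low in the light hours and high around lights off. The GFP values were 175, 199, 200 and 217 at ZT0 (n = 4) and 83.6, 186, 195, 198 and 216 at ZT4 (n = 5). At ZT8 the 6 libraries ran from 85.9 through a median of 111 to 376, at ZT12 from 248 through 628 to 881, and at ZT16 from 220 through 345 to 576. At ZT20 the 5 values were 71.0, 111, 332, 364 and 473. Every GFP library of ZT12 and of ZT16 was above every one of ZT0 and ZT4, whereas ZT20 overlapped all of them. Ordered by median, the times ran ZT8, ZT4, ZT0, ZT20, ZT16, ZT12, and each neighbour in that order overlapped the next. ZT12 was above ZT0 by 1.62 ± 0.53 (log2, SE), ZT16 by 0.93 ± 0.51, and ZT8 stood at -0.38 ± 0.50 from ZT0. edgeR's quasi-likelihood test over the 6 times, with Benjamini-Hochberg adjustment over 13891 genes, called the GFP day course (adjusted p = 0.0166), as it did 3.46% of the genes. JTK_CYCLE, the rank test for rhythms that the study used, gave an adjusted p of 0.00283 for Bc1 with a period of 20 h and a peak at 14 h, and 14.3% of 12176 genes passed 0.05 in GFP by that measure. After correction over genes the JTK_CYCLE value was q = 0.130. Within cohort 1 the GFP day course also passed (edgeR adjusted p = 7.94e-07, against 3.18% of 12640 genes called). Without the cohort 1 libraries numbered 1, 2 or 4, the edgeR adjusted p of the GFP day course was 0.232, 0.133 or 0.0747, while ZT12 remained above ZT8 by 1.83, 1.79 or 1.98 (log2), against 2.01 with all libraries.

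In H3.3 the order was different. The 5 libraries of ZT0 were at 179, 338, 399, 455 and 516. At ZT4 the 6 libraries ran from 213 through 269 to 1848, at ZT8 the 7 from 203 through 419 to 937, and at ZT12 the 7 from 197 through 306 to 1151. At ZT16 the 8 ran from 99.9 through 631 to 2471 and at ZT20 the 6 from 487 through 733 to 1094. All 6 times overlapped with their neighbours in the order of medians (ZT4, ZT12, ZT0, ZT8, ZT16, ZT20), and the highest library at ZT4, ZT8, ZT12 and ZT16 was each time from cohort 3. The day course in H3.3 did not pass (edgeR adjusted p = 0.308, against 2.52% of genes called). Within cohort 1, where 4 libraries stood at each time, it did (edgeR adjusted p = 0.000917, against 26.1% of 12640 genes called). There the ZT20 libraries were at 691 to 1094 and the ZT4 libraries at 213 to 273.

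In Q5A the highest medians fell in the light hours. At ZT0 the 6 libraries ran from 194 through 621 to 1413, at ZT4 the 7 from 364 through 905 to 1675, and at ZT8 the 6 from 414 through 886 to 1311. At ZT12 the 7 ran from 518 through 711 to 971, at ZT16 the 7 from 261 through 631 to 1217, and at ZT20 the 6 from 203 through 403 to 643. All times overlapped with their neighbours in the order of medians (ZT20, ZT0, ZT16, ZT12, ZT8, ZT4). The day course in Q5A did not pass (edgeR adjusted p = 0.869, against 0.324% of genes called). With the 3 viruses together the day course of Bc1 did not pass either (edgeR adjusted p = 0.341, against 6.37% of genes called).

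**Figure D3:**
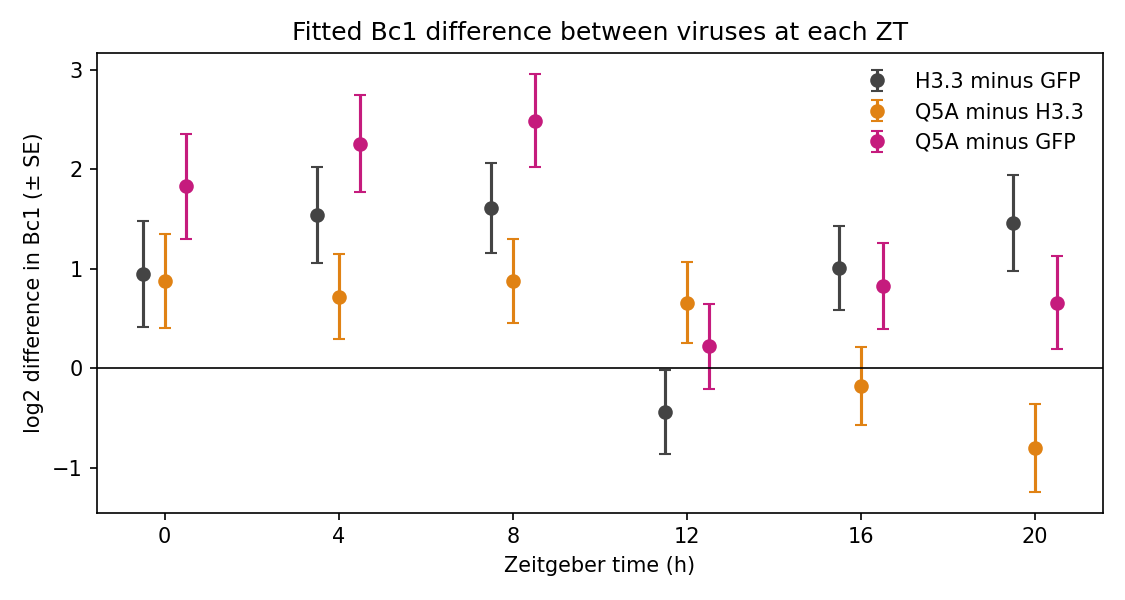
Fitted log2 difference in Bc1 between viruses at each ZT, with bars of 1 SE. Q5A minus GFP falls from 2.49 at ZT8 to 0.22 at ZT12, H3.3 minus GFP is below 0 only at ZT12 (-0.44), and Q5A minus H3.3 is below 0 at ZT16 and ZT20.

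The fitted virus differences varied with ZT. Q5A minus GFP was 1.83 ± 0.53 at ZT0, 2.26 ± 0.49 at ZT4 and 2.49 ± 0.47 at ZT8 (log2, SE), and 0.22 ± 0.43 at ZT12, 0.83 ± 0.43 at ZT16 and 0.66 ± 0.47 at ZT20. At ZT4 and ZT8 every Q5A library (7 and 6) was above every GFP library (5 and 6). H3.3 minus GFP was largest at ZT8 (1.61 ± 0.45) and stood at -0.44 ± 0.42 at ZT12, and at ZT20 all 6 H3.3 libraries were above all 5 GFP libraries. Q5A minus H3.3 went from 0.88 ± 0.47 at ZT0 to -0.80 ± 0.44 at ZT20. In cohort 1 all 4 Q5A libraries at ZT20 were below all 4 H3.3 libraries, whereas at ZT0, ZT4, ZT8 and ZT12 all Q5A libraries were above all H3.3 libraries. The test of this variation, the virus by ZT interaction, did not pass over all libraries (edgeR adjusted p = 0.0748, against 0.482% of genes called). Over all libraries it had an edgeR adjusted p of 0.620 with the share of reads in gene rows as a term, and of 0.169 with the log2 total count as a term. It passed with cohort as a term (edgeR adjusted p = 0.00198, 1.48% of genes called) and within cohort 1 (edgeR adjusted p = 3.80e-06, 18.3% of 12640 genes called). Since Bc1 was chosen for a difference between viruses, the interaction p-values are not free of that choice.

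Read composition moved with these values. With the share of reads in gene rows as a term, the GFP day course had an edgeR adjusted p of 0.10 and ZT12 stood 1.51 above ZT8 (log2), against 2.01 without the term. With the share of annotated reads in rows that have no gene on the other strand (added after the data were seen) the GFP day course had an edgeR adjusted p of 0.413 and a ZT12 minus ZT8 difference of 1.24. With cohort and this second share together it passed (edgeR adjusted p = 0.0384) with a difference of 1.33. The interaction did not pass with the second share alone (edgeR adjusted p = 0.998) or with cohort beside it (0.130). That second share had a median of 24.1% in the GFP libraries of ZT12, where Bc1 was highest, and of 16.5% in those of ZT8, where it was lowest. With the share in gene rows as a term, H3.3 minus GFP was 0.82, Q5A minus H3.3 0.51 and Q5A minus GFP 1.33 (log2), against 0.95, 0.37 and 1.32 without it, and with the second share they were 0.96, 0.35 and 1.31.

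**Figure D4:**
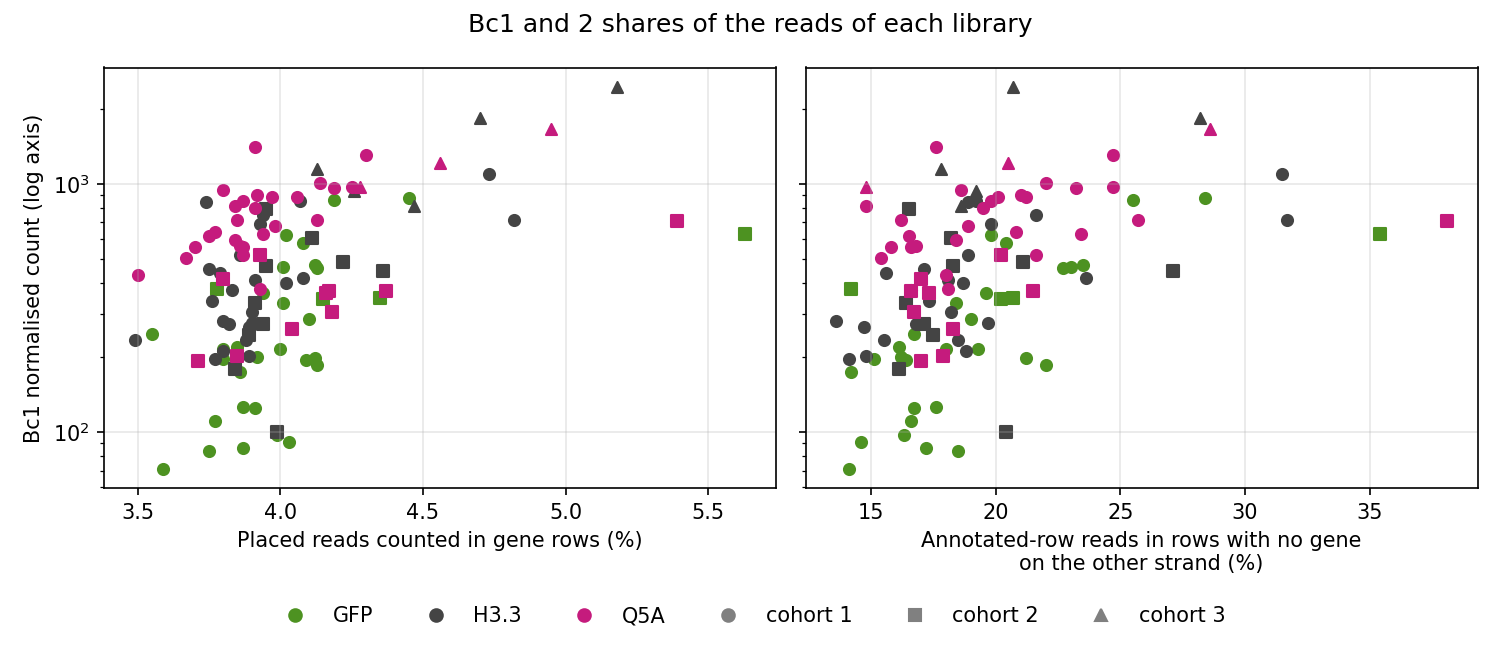
Bc1 normalised count (log axis) of each library against the share of placed reads counted in gene rows (left) and the share of annotated-row reads in rows with no gene on the other strand (right), coloured by virus with symbols for cohort. Bc1 is higher where either share is higher, and the 3 libraries with the most Bc1 have gene-row shares of 4.70% to 5.18%.

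Over the 110 libraries, with virus and ZT group means taken out, Bc1 (log2) rose with the share of reads in gene rows (Pearson r = 0.44, Spearman rho = 0.40, and r = 0.52 without the 2 libraries farthest in that share). Within cohorts, without taking out group means, r was 0.36 in cohort 1 (n = 78), 0.48 in cohort 2 (n = 24) and 0.85 in cohort 3 (n = 8). A share higher by 1 percentage point went with a Bc1 level higher by 1.05 on the log2 scale, and the squared correlation was 19.1%. The share itself did not follow the order of the viruses. Its medians were 4.00% in GFP, 3.91% in H3.3 and 3.93% in Q5A. Cohort 3, where Bc1 was highest, had a median share of 4.51%, against 3.91% in cohort 1 and 4.01% in cohort 2. The 2 libraries with the highest share (GFP and Q5A ZT12 of cohort 2, at 5.63% and 5.39%) had Bc1 levels of 631 and 711, number 36 and number 31 of the 110. The share in rows without a gene on the other strand ran from 13.6% to 38.1% and had rho = 0.45 with Bc1 on centred values. Within cohorts, without taking out group means, rho was 0.57 in cohort 1, 0.31 in cohort 2 and 0.71 in cohort 3. The medians of this share by virus were 18.4%, 18.3% and 18.6%. The part of either share in the Bc1 differences was not tested beyond the model terms given above.

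Of 10 library measures tested against Bc1 on centred values by permutation within groups (100000 resamples, two-sided, adjusted over the 10), the summed level of 8 astrocyte markers was related to Bc1 by both coefficients (r = 0.36, adjusted permutation p = 0.00255, and rho = 0.37, adjusted permutation p = 0.00105). Without the 2 farthest libraries r was 0.31. Within cohorts, without taking out group means, r was 0.49, 0.14 and 0.64. The astrocyte sum had medians of 571 in GFP, 584 in H3.3 and 642 in Q5A, with ranges of 339 to 1188, 316 to 1332 and 457 to 1534. A centred rho above 0.3 with Bc1 was most common among single rows with no gene on the other strand. It was seen in 25.6% of rows with no gene on the other strand and 7.29% of rows with one. Among rows whose name is not in the annotation used it was 3.47%. Many single rows thus reached such a value. Whether the sum of 8 astrocyte markers stands apart from sums of other rows was not tested. The share in rows without a gene on the other strand, chosen after the data were seen, was 1 of the 10 and is described above. Striatal markers were related by rank alone (rho = 0.30, adjusted permutation p = 0.00927, but r = 0.13, adjusted permutation p = 0.258), as were endothelial markers (rho = 0.25, adjusted permutation p = 0.0348, and r = 0.26, adjusted permutation p = 0.0767). Neuronal markers (rho = -0.19), histaminergic markers (-0.14), oligodendrocyte markers (0.10), microglial markers (-0.22), pituitary markers (-0.16) and the log2 total count (0.16) did not pass. All members of the neuron, astrocyte, oligodendrocyte, microglia and endothelium lists had a median above 0, whereas Gh, Prl, Cga and Fshb of the pituitary list, Wif1 of the histaminergic list and Adora2a of the striatal list were at 0. The part of any of these cell types in the Bc1 differences was not tested.

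**Figure D5:**
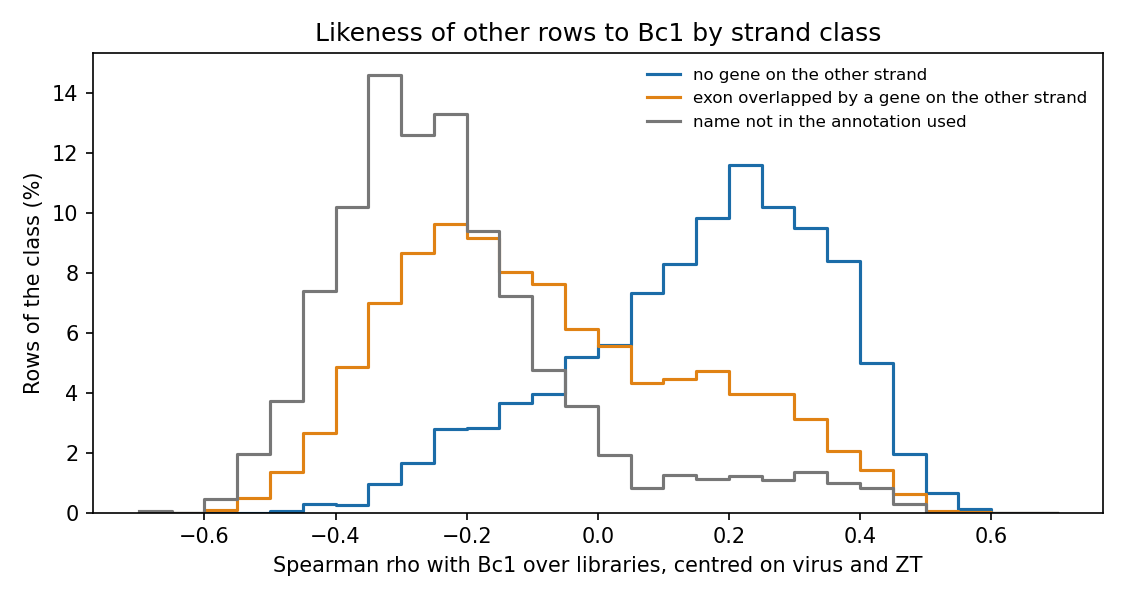
Distribution of Spearman rho with Bc1 over 110 libraries for 9158 other rows, in percent of each of 3 classes of rows. Rows with no gene on the other strand centre on positive values (median 0.19), rows opposite another gene on slightly negative ones (-0.11) and rows whose name is not in the annotation used on negative ones (-0.25).

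Likeness to Bc1 was measured by Spearman rho over 110 libraries, on log2 values with group means taken out. The 5 highest of 9158 rows were Zwint (rho = 0.58), a kinetochore gene abundant in neurons, Rtn3 (0.57), an endoplasmic reticulum membrane protein, Sdf4 (0.57), a calcium-binding protein of the Golgi, Calr (0.56), the endoplasmic reticulum chaperone calreticulin, and Scg3 (0.56), a secretory granule protein. Of these, Rtn3 alone has a gene on the other strand (2700081O15Rik). The 3 lowest were Bet1l (-0.59), a Golgi transport protein that lies opposite Ric8a, and a pair of rows with clone names that the annotation used does not hold (-0.66 and -0.58). Their virus differences were small: Zwint had 0.19 ± 0.13 for Q5A minus GFP and Rtn3 0.22 ± 0.12 (log2, SE). Of 3710 rows with no gene on the other strand 25.6% had rho above 0.3 and 1.54% had rho below -0.3, against 7.29% and 16.4% of 3403 rows with one. The libraries share depth and read composition across rows, so these coefficients are a description.

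Of the rows next to Bc1 on chromosome 7, 2 had enough reads for a test on virus. Oraov1, the earlier name of LTO1, starts 463 bases after Bc1 on the same strand and lies opposite Ccnd1. Its mean normalised counts were 572 ± 109 in GFP, 573 ± 129 in H3.3 and 581 ± 122 in Q5A (SD), a Q5A minus GFP difference of 0.03 ± 0.08 (log2, SE). Its centred rho with Bc1 was -0.25. Ccnd1, which encodes cyclin D1, was at 83.9 ± 13.4, 93.3 ± 18.4 and 83.2 ± 15.7. Its differences were 0.15 ± 0.07 for H3.3 minus GFP, -0.17 ± 0.06 for Q5A minus H3.3 and -0.02 ± 0.07 for Q5A minus GFP, none of which passed (edgeR adjusted p of 1.00, 0.948 and 0.977). Before Bc1, the nearest annotated gene, Gm39119, lies 4385 bases away on the other strand, and Fgf15, which it overlaps, had a median of 1.00 read.

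Other small noncoding RNAs could not be set beside Bc1. The list of 17 held RNAs of RNA polymerase III (7SK, 7SL, RNase P and MRP, Y and vault RNAs among them) together with telomerase RNA and several U RNAs, which RNA polymerase II transcribes. Of the 17, 16 had a row and 0 passed the filter on low counts. All 16 had a median of 0 reads, and the highest count in any library was 5 (Rny1). Among 146 tested rows of other genes with at most 300 bases of exon, the median difference was -0.02 for H3.3 minus GFP and -0.06 for Q5A minus controls (log2), against 0.01 and 0.00 over all other genes. The 5 most abundant, Gm23134, Gm24157, Gm26602, Gm44330 and Gm17606, each lie opposite a longer gene (Gm23134 opposite Nnat at a mean of 2105), and their differences of Q5A from controls ran from -0.14 to 0.12. Of the 146, 0 were called by edgeR at 0.01 in either comparison (7 and 9 had an unadjusted p under 0.05, and DESeq2 called 0).

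Of 28 genes of the subunits and factors of RNA polymerase III 26 were tested, and their median differences were 0.00 for H3.3 minus GFP and 0.02 for Q5A minus controls (log2), against 0.01 and 0.00 over all other genes. In these comparisons 0% and 0.0144% of all genes passed (edgeR adjusted p under 0.01), so the count of 0 passing in this list and in the 3 that follow does not set them apart. Of the 26, 1 and 0 had an unadjusted p under 0.05, and DESeq2 called 0. In Q5A, Snapc3 stood at -0.02 ± 0.06 from controls, Tbp, the TATA-binding protein, at -0.02 ± 0.06 and Gtf3a, the 5S gene factor TFIIIA, at -0.04 ± 0.06, and each of these rows lies opposite another gene. So do Cyfip1, Eif4a2, Meg3 and Map2 of the lists that follow. Which strand the reads in any listed row came from was not tested. The differences given for the lists are those of rows and may not be those of the named RNAs. Of 20 genes listed for protein partners of BC1 RNA and for dendritic transport, 19 were tested. Their medians were 0.02 and 0.07, with 0 passing in either comparison (3 and 2 at an unadjusted p under 0.05, 0 by DESeq2). Cyfip1 and Cyfip2, partners of the fragile X protein, stood at 0.11 ± 0.07 and 0.15 ± 0.08 from controls in Q5A, Eif4a2, a form of eIF4A, at -0.12 ± 0.08, and Hnrnpa2b1, a dendritic transport factor, at -0.03 ± 0.08.

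The 12 tested long noncoding RNAs abundant in brain had medians of -0.13 for H3.3 minus GFP and 0.02 for Q5A minus controls, with 0 passing (2 and 1 at an unadjusted p under 0.05, 0 by DESeq2). Snhg14, which runs opposite Ube3a, was at 0.10 ± 0.09 from controls in Q5A, Meg3 at -0.13 ± 0.10, Snhg11 at 0.03 ± 0.11 and Rian at 0.05 ± 0.11. The 16 messenger RNAs found in dendrites had medians of 0.07 for H3.3 minus GFP and 0.06 for Q5A minus controls, with 0 passing (1 and 3 at an unadjusted p under 0.05, 0 by DESeq2). Kif5a, a kinesin, stood at 0.04 ± 0.08, Eef1a1, the elongation factor, at 0.20 ± 0.09 and Map2, a dendritic cytoskeleton protein, at 0.09 ± 0.10. For the day course over all libraries 2 of these 16 were called at 0.05 (Shank3 and Ppp1r9b, which encodes spinophilin, adjusted p = 0.00132), against 6.37% of all genes. In the other 3 lists with tested members 0 of 57 were called for the day course, where 10 had an unadjusted p under 0.05 and DESeq2 called 0. Over all 13890 other genes tested, 3330 had an unadjusted p under 0.05 for the day course by edgeR, and DESeq2 called 1223.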

How the data were processed

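The authors aligned reads to GRCm38 with STAR 2.7.11b and counted them per gene name with HTSeq 2.0.5 (same-strand setting, minimum alignment quality 10, Ensembl v93). The deposited values are raw counts per gene row in 111 tables, and 18 further count tables that the labels tie to no sample were not used. Bc1, the gene lists and the tests were chosen with earlier results of these data known. Genes were kept by filterByExpr (minimum count 10, minimum total 15 over the 18 groups of virus and ZT), scaled by TMM and tested with edgeR 4.0.16 quasi-likelihood fits over all genes (R 4.3.3), with Benjamini-Hochberg adjusted p thresholds of 0.05 for the day course and interaction and 0.01 for viruses. Virus differences came from a model of virus and ZT, the pooled-control difference from a model of 1 control arm and ZT, and the day course within viruses and the interaction from a model of the 18 groups. SEs are the size of the difference over the square root of its F. Normalised counts are counts over size factors (median of ratios, from 9428 genes with a read in every library), and log2 values add 1. Named genes were Bc1, the 5 highest and 3 lowest in Spearman rho among genes with a mean normalised count of at least 10, the annotated neighbours, up to 4 members of highest mean count per list and the 5 most abundant rows of at most 300 bases. One gene that this rule names is not reported here. Tested on simulated data, the fits recovered 99.0% of 200 genes changed by 1 on the log2 scale over the day and 98.5% of 200 so changed in Q5A minus controls, among 13300 genes. They called 10 and 2 genes that were not so changed. The simulated libraries had a dispersion of 0.2 and no difference by cohort or read composition, so these shares need not hold for the real counts. GENCODE M21 (GRCm38) named strands and neighbours. DESeq2 1.42.0 was an alternative. Replicates are labelled as separate samples of a group.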

Additional observations from a re-analysis of the deposited data

Results flagged for a closer look

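In 6 of the 18 groups of virus and ZT, 1 library lay far from the others of its group by Dixon's 95% limit. That limit is made for normally spread values and was applied to normalised counts, not to their log2 values. How many groups it would mark by chance here is therefore not known. The marked values were normalised Bc1 counts of 83.6 in GFP at ZT4 (cohort 1 replicate 4, nearest 186) and 376 in GFP at ZT8 (cohort 2 replicate 1, nearest 126). The other 4 were the cohort 3 libraries of H3.3 with 1848 at ZT4 (nearest 273), 937 at ZT8 (nearest 467), 1151 at ZT12 (nearest 606) and 2471 at ZT16 (nearest 852). These 4 had gene-row read shares of 4.70%, 4.26%, 4.13% and 5.18%, against a median of 3.91% over all H3.3 libraries. The part of that share in their Bc1 level was not tested.

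For Bc1 the virus by ZT interaction of edgeR passed within cohort 1 (adjusted p = 3.80e-06), as it did for 18.3% of 12640 genes. It passed with cohort as a term (adjusted p = 0.00198, 1.48% of genes called), but not over all libraries without that term (adjusted p = 0.0748). It did not pass with cohort and the share in rows without a gene on the other strand together as terms (adjusted p = 0.130). Bc1 was chosen for a difference between viruses, so these p-values are not free of that choice.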

How the results depend on the processing

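The 4 virus differences kept their sign under every alternative fitted on 2 or more cohorts or within cohort 1, and reversed only within the small cohorts (-0.28, -0.25 and -0.05 in cohort 2 for H3.3 minus GFP, Q5A minus GFP and Q5A minus controls, and -0.07 in cohort 3 for Q5A minus H3.3 and for Q5A minus controls, which there are H3.3 only). Leaving out the cohort 1 libraries of 1 number, or any single library, left all 4 positive. The GFP day course lost its call with the share in gene rows (0.10) or in rows without a gene on the other strand (0.413) as a term but not with cohort and the second share together (0.0384), and ranged from 0.0224 to 0.232 without 1 replicate number. The interaction passed with DESeq2 (0.0273), total count (0.0225) or placed reads (0.0161) as library size, no filter (2.94e-18), cohort as a term (0.00198) and within cohort 1 (3.80e-06). It did not pass with the share in gene rows (0.620), log2 total count (0.169), the share in rows without a gene on the other strand (0.998) or cohort and that share together (0.130) as terms. The H3.3 day course passed with no filter (0.000374) and within cohort 1 (0.000917), and the Q5A day course with no filter (0.0307). The causes were not tested. A replicate block of cohort and number gave 0.000498 for GFP, 0.0489 for H3.3 and 0.00355 for the interaction, but the numbers did not pair the libraries (median r of deviations 0.02 for 778 pairs of the same cohort and number, 0.01 for 2387 of other numbers). Genes called for the GFP day course ranged from 8 to 2805 over the alternatives (480 as reported), for H3.3 from 24 to 3303 (350 as reported) and for the interaction from 0 to 2317 (67 as reported).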
